A study of Mus musculus with 6 samples.

Results

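The 10 genes described here make, load or control MHC class II, the surface molecule that shows peptides to CD4 T cells. They were taken by name from 24346 genes measured in colonic stromal cells, and all 10 were listed. H2-Aa and H2-Ab1 encode the alpha and beta chain of I-A, and H2-Eb1 the beta chain of I-E. Cd74 encodes the invariant chain, a chaperone that fills the peptide groove until the molecule reaches the endosome. Ctss encodes cathepsin S, the protease that trims the invariant chain. H2-DMa, H2-DMb1 and H2-DMb2 encode H2-M, which swaps the remaining fragment for a peptide, and H2-Oa encodes a chain of H2-O, which restrains H2-M. Ciita encodes the transactivator that drives transcription of the chain genes, Cd74 and the H2-M genes.

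Class II is best known from dendritic cells, macrophages and B cells, where Ciita is on without a stimulus. Fibroblasts and other non-immune cells can switch it on when interferon gamma acts through JAK1, JAK2 and IRF1 on a separate Ciita promoter. CIITA does not bind DNA itself. It docks on a complex of RFX, CREB and NF-Y proteins that sits on an X box and a Y box in front of the class II genes.

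Each of the 6 libraries came from 1 mouse of 12 weeks that had received 1% dextran sulfate sodium (DSS), which injures the colonic epithelium. The Pdgfra-cre group (mice 13, 23 and 25; genotype Pdgfra cre; Il10ra flox/flox) carries a Cre driven by Pdgfra, a gene of fibroblasts, and floxed alleles of Il10ra, the gene of the receptor chain that binds interleukin-10. The floxed group (mice 8, 9 and 43; genotype Il10ra flox/flox) carries the same alleles without Cre. All mice had DSS, so no library shows the undamaged colon. Cells in which Pdgfra does not drive Cre keep Il10ra, and strain and sex are not stated. Live Podoplanin-positive cells were sorted, with cells bearing CD45 (leukocytes), CD31 (endothelium) or EpCAM (epithelium) discarded. The comparison asks how loss of the receptor from Pdgfra-expressing cells bears on these cells' transcripts.

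The libraries held 11188 to 11358 genes at 1 FPKM or more. Read totals are not given here. The lowest values of long single-transcript genes clustered at 1 and 2 fragments, which put 1 fragment per kilobase at about 0.111 to 0.116 FPKM in 5 libraries and at 0.131 in floxed library 9. That corresponds to about 7600000 to 9000000 fragments each, as the authors' program scaled them. Il10ra was listed at 0 in all 3 Pdgfra-cre libraries, against 0, 0 and 0.418 FPKM in floxed libraries 8, 9 and 43, so its deletion could not be seen. Fibroblast genes were abundant throughout, with Dcn at 9697 to 11261 FPKM in Pdgfra-cre and 8626 to 9149 FPKM in floxed libraries. Pdgfra had 155, 120 and 174 FPKM in Pdgfra-cre libraries 13, 23 and 25. In floxed libraries 8, 9 and 43 it had 178, 186 and 200 FPKM, so its groups were apart (limma adjusted p = 0.411). Of the 8 fibroblast markers tested, Dcn alone lay higher in all Pdgfra-cre libraries, as 8.07% of all tested genes did. Pdgfra alone lay lower. For genes lower in all Pdgfra-cre libraries, here and below, the share over all tested genes was not counted. Pdgfra-cre library 23 stood apart in the genes described here, and the fold changes are given with and without it.

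The promoter letters that class II genes share are shown first, since most of these genes were highest in the same library. RefSeq promoter sequences of build GRCm38.p6, from 250 bases before to 50 after the start site, were held for 7 of the 10 members; none was held for H2-Ab1, Cd74 or Ciita. Capitals mark an AAC that stands 30 or 31 bases before the Y box, the X box letters (AAC, any 3 bases, then TGATG), the cyclic AMP response element TGACGTCA to which CREB proteins bind, the Y box ATTGG, and in Ctss an interferon-stimulated response element (GAAA, any 2 bases, then GAAA). The letters were chosen after the promoters had been read. Each line runs 5′ to 3′ along the gene's strand.
H2-Eb1 (chr17:34305763-34305823, plus strand): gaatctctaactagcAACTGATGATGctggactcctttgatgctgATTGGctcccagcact
H2-DMb1 (chr17:34153085-34153145, plus strand): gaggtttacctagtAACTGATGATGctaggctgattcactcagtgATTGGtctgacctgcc
H2-DMb2 (chr17:34145114-34145174, plus strand): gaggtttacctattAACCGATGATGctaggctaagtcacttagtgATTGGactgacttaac
H2-Oa (chr17:34092291-34092351, plus strand): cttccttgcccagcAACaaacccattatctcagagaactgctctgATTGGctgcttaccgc
H2-Aa (chr17:34287856-34287916, minus strand): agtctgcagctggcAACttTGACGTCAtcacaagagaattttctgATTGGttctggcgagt
Ctss (chr3:95526720-95526780, plus strand): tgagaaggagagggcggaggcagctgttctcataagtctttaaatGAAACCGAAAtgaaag

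All 5 H2 windows printed hold the AAC 30 or 31 bases before the Y box, a pair found on either strand in 1.3% of 32851 promoters of the same length. The AAC overlaps the X box in H2-Eb1, H2-DMb1 and H2-DMb2. X box letters followed on the same strand by a Y box, starting 20 to 45 bases later, stood in 9 of the 32851 promoters (0.0274%), and 4 of these 9 belong to H2-Eb1, H2-DMb1, H2-DMb2 and the related H2-Ob. Alone, the X box letters stood in 0.615% of promoters and the Y box letters, on either strand, in 37.4%. H2-Aa has TGACGTCA between its AAC and Y box, letters held by 1.79% of promoters. Of 2 listed promoters of H2-DMa, which are not printed, neither held the X box letters or the pair of AAC and Y box. Ctss held none of the class II letters but the response element letters, found on either strand in 3.44% of promoters. Despite the shared letters the levels of these genes differed widely, as the values below show.

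The chains of I-A and the invariant chain were the most abundant members, and Pdgfra-cre library 23 far exceeded the other 5 libraries in them. H2-Ab1 had 16.9, 183 and 7.84 FPKM in Pdgfra-cre libraries 13, 23 and 25, against 7.40, 8.71 and 13.1 FPKM in floxed libraries 8, 9 and 43. H2-Aa had 9.36, 65.8 and 3.72 FPKM in Pdgfra-cre libraries, against 3.50, 3.27 and 4.14 FPKM in floxed ones. For both genes Pdgfra-cre library 25 lay among the floxed libraries, so the groups overlapped. H2-Eb1 had 2.23, 23.8 and 2.68 FPKM in Pdgfra-cre libraries, against 1.36, 2.18 and 1.95 FPKM in floxed ones. Its groups did not overlap, though the lowest Pdgfra-cre and the highest floxed value were nearly the same. Its partner locus H2-Ea-ps, a pseudogene in this genome, was listed at 0 in all 6 libraries, as were the class II genes H2-Ob and H2-Eb2. In bulk RNA, fewer cells of a type and less RNA per cell cannot be told apart.

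Cd74 was, of the 6 members that passed the filter on low values, the one with the largest fold change without library 23. It had 17.3, 108 and 15.4 FPKM in Pdgfra-cre libraries, against 7.30, 6.82 and 10.8 FPKM in floxed ones. All 3 Pdgfra-cre libraries lay above all 3 floxed libraries, which 8.07% of tested genes also showed. Over the floxed mean, Cd74 was 2.09 times as high in library 13, 13.1 times in library 23 and 1.85 times in library 25. The fold change of Cd74 was 1.81 ± 0.61 on the log2(FPKM + 1) scale (SE) and did not pass over all genes (limma adjusted p = 0.303). Without library 23 it was 0.92 ± 0.22, again without passing (limma adjusted p = 0.215).

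**Figure D1:**
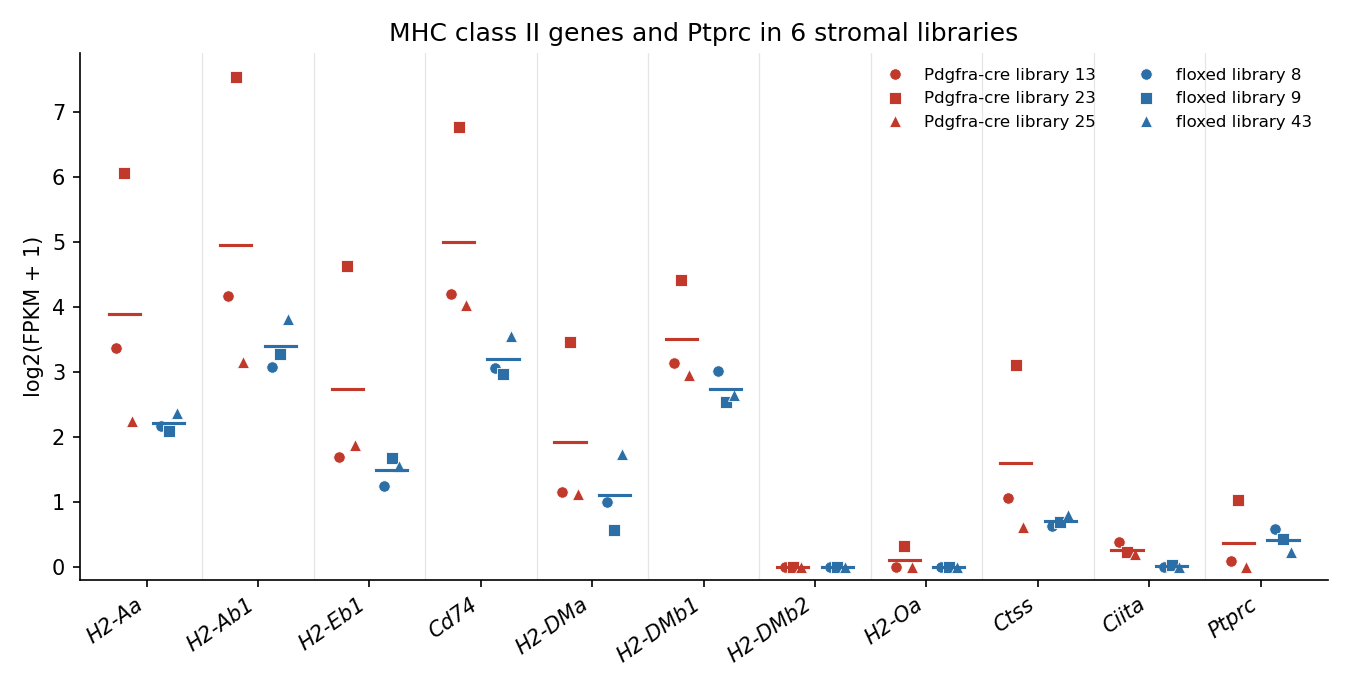
Level of each class II gene and of Ptprc, the CD45 gene, in the 6 libraries as log2(FPKM + 1); points are libraries, lines are group means (n = 3 each), red is Pdgfra-cre and blue is floxed. Pdgfra-cre library 23 (red squares) is highest in 8 of the 10 class II genes and in Ptprc, and H2-DMb2 is at 0 throughout.

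Of the peptide exchange genes, H2-DMb1 was detected well and varied least. It had 7.79, 20.4 and 6.71 FPKM in Pdgfra-cre libraries, against 7.07, 4.81 and 5.27 FPKM in floxed ones. Its alpha chain partner H2-DMa had 1.23, 10.02 and 1.18 FPKM in Pdgfra-cre libraries, against 1.01, 0.487 and 2.32 FPKM in floxed ones. In both genes the groups overlapped, with floxed library 8 among the Pdgfra-cre libraries in H2-DMb1 and floxed library 43 in H2-DMa. H2-DMb2, a close copy of H2-DMb1, was listed at 0 in all 6 libraries. Their transcripts in GENCODE M21 were identical at 94.8% of 1255 aligned bases, and 27.2% of the 50-base windows of the H2-DMb1 transcript also occur in H2-DMb2. How the authors' program divided reads of such windows is not stated, so the split between the copies is uncertain. H2-Oa was listed at 0 in 5 libraries and at 0.244 FPKM in Pdgfra-cre library 23, which is about 2 fragments. The exchange inhibitor H2-O was thus hardly measured.

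Ctss and Ciita lay near the lower end of what these libraries can measure. Ctss had 1.09, 7.62 and 0.523 FPKM in Pdgfra-cre libraries, against 0.543, 0.614 and 0.732 FPKM in floxed ones, and the groups overlapped (exact permutation p = 0.4, two-sided). Outside library 23 its values stand for about 6 to 13 fragments. Ciita had 0.297, 0.171 and 0.142 FPKM in Pdgfra-cre libraries, against 0.0238 FPKM in floxed library 9 and a listed 0 in floxed libraries 8 and 43. With the longest coding transcript of 6007 bases this is about 15, 9 and 8 fragments in Pdgfra-cre libraries, against 0, 1 and 0 in floxed ones. All 3 Pdgfra-cre libraries lay above all floxed ones, a pattern that 2.58% of the 5588 genes below the filter showed (exact permutation p = 0.1, two-sided, the smallest that 3 against 3 allow). Unlike the other detected members, Ciita was highest in library 13 and not in library 23. A gene-level value does not tell which Ciita promoter was used.

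No member passed the test between genotypes. Of the 10 members, 6 passed the filter on low values, and Ctss, Ciita, H2-Oa and H2-DMb2 did not. Of the 6, H2-DMa reached 1 FPKM in 5 libraries and the others in all 6, so none passed only through its high group. Adjusted over all 11429 tested genes, 0 of 6 members and 0% of all genes passed (limma). At an unadjusted limma p under 0.05 only Cd74 passed among the 6, against 5.47% of tested genes with higher values in Pdgfra-cre. Leaving out Pdgfra-cre library 25, Pdgfra-cre library 13 or floxed library 43, limma called 0.289%, 0.0262% and 0.0175% of all tested genes, and 0 of the 6 members each time. All 6 had a fold change above 0, as 50.3% of tested genes did. Their median was 1.40 on the log2 scale, against 0.00 over all tested genes.

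The single fold changes show what lay behind that median. H2-Aa was at 1.68 ± 0.76 (SE; limma adjusted p = 0.473) and H2-Ab1 at 1.55 ± 0.89 (limma adjusted p = 0.589). H2-Eb1 was at 1.25 ± 0.66, H2-DMa at 0.81 ± 0.60 and H2-DMb1 at 0.77 ± 0.36 (limma adjusted p of 0.487 to 0.696). Without Pdgfra-cre library 23 the fold changes were 0.60 for H2-Aa, 0.26 for H2-Ab1, 0.30 for H2-Eb1, 0.04 for H2-DMa and 0.31 for H2-DMb1. The median without that library was 0.30. Leaving out that library thus lowered the fold change of every tested member, of Cd74 the least in proportion.

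**Figure D2:**
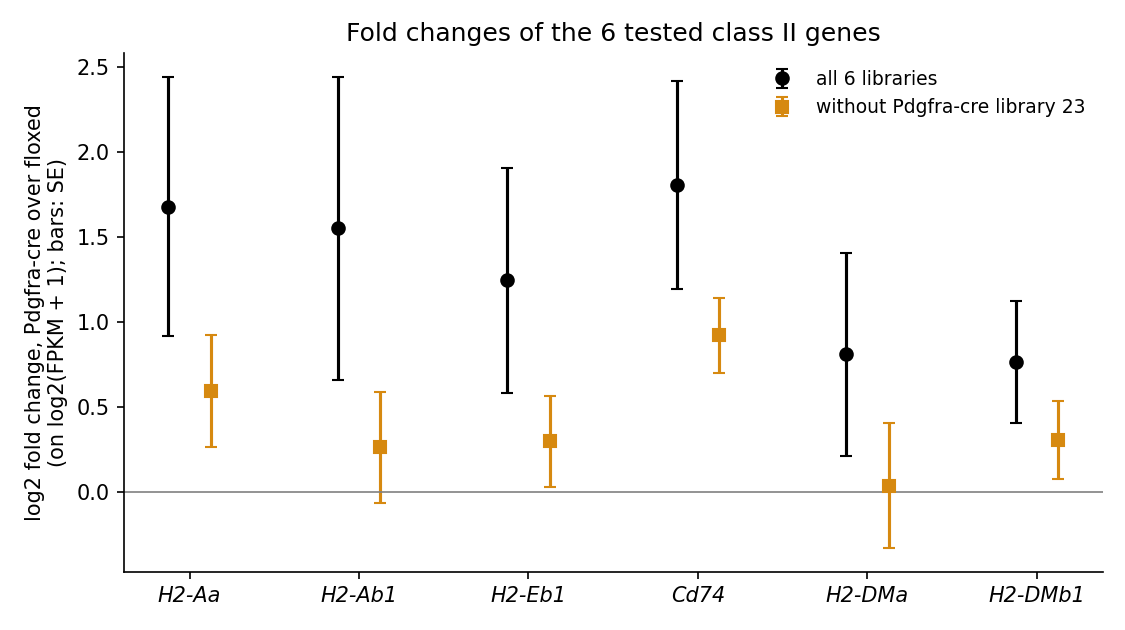
Log2 fold change of Pdgfra-cre over floxed for the 6 tested class II genes, on log2(FPKM + 1), with SE as bars, from all 6 libraries (black) and without Pdgfra-cre library 23 (orange). Cd74 is at 0.92 without that library, while H2-DMa is at 0.04.

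In library 23 the members exceeded the other libraries by unequal amounts. Its values were 18.8 times the floxed mean for H2-Ab1, 18.1 times for H2-Aa, 13.1 times for H2-Eb1, 12.1 times for Ctss, 7.88 times for H2-DMa and 3.56 times for H2-DMb1. All 6 tested members were highest in this library, as were 23.7% of tested genes. Set against the median of the other 5 libraries on FPKM + 1, H2-Ab1 ranked 2 and H2-Aa 8 among the 11429 tested genes, at 19.0 and 14.1 times. Cd74 ranked 19, H2-Eb1 21, H2-DMa 52 and H2-DMb1 147; a ratio of 4 or more was reached by 0.761% of tested genes. The chains, the invariant chain and Ctss thus stood further from the other libraries than the exchange genes did.

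The balance between members, as ratios of FPKM and so per length, also differed between libraries. Cd74 over H2-Ab1 was 1.02, 0.591 and 1.96 in Pdgfra-cre libraries 13, 23 and 25, against 0.986, 0.783 and 0.821 in floxed libraries. Library 25 had the most invariant chain per I-A beta chain and library 23 the least. H2-DMb1 over H2-Ab1 was 0.461, 0.111 and 0.856 in Pdgfra-cre libraries, against 0.955, 0.552 and 0.402 in floxed ones. H2-Aa over H2-Ab1 stayed between 0.359 and 0.554 in Pdgfra-cre libraries, against 0.316 to 0.474 in floxed ones. The alpha and beta chains of I-A therefore kept a narrower ratio than the beta chain kept with Cd74 or H2-DMb1. In none of these ratios were the groups apart.

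Within the floxed group the order of FPKM levels was H2-Ab1 (9.74 ± 3.00), Cd74 (8.30 ± 2.16), H2-DMb1 (5.72 ± 1.19), H2-Aa (3.64 ± 0.451), H2-Eb1 (1.83 ± 0.423), H2-DMa (1.27 ± 0.946) and Ctss (0.630 ± 0.0951; SD, n = 3). H2-Ab1 and Cd74, Cd74 and H2-DMb1, H2-Eb1 and H2-DMa, and H2-DMa and Ctss were pairs of neighbours that did not differ beyond their spread between mice. Within each floxed library H2-Ab1 was above Cd74 and Cd74 above H2-DMb1, in library 8 by little. The order within the other pairs was not the same in every floxed library. In Pdgfra-cre the means were 69.4 ± 98.8 FPKM for H2-Ab1, 47.0 ± 53.1 for Cd74 and 26.3 ± 34.3 for H2-Aa (SD, n = 3), with an SD above each mean.

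Whether leukocytes had slipped through the sort was read from Ptprc and from marker lists. Ptprc had 0.0635, 1.04 and 0 FPKM in Pdgfra-cre libraries, against 0.498, 0.352 and 0.170 FPKM in floxed ones. It was highest in library 23, at about 47 fragments, like the class II genes. In the other 5 libraries the order was different. Pdgfra-cre libraries 13 and 25 had less Ptprc than any floxed library and more Cd74 than any. Their Ptprc values stand for about 3 and 0 fragments. Coro1a was likewise lower there, at 0 and 0.138 FPKM against 0.218 to 0.934 FPKM in floxed libraries. Rac2 went the other way, at 0.297 and 0.498 FPKM against 0.112 to 0.222 FPKM in floxed libraries. The rest of the 6 leukocyte markers overlapped between these libraries and floxed ones. The summed level of all 6 leukocyte markers was 2.58, 14.4 and 3.40 FPKM in Pdgfra-cre libraries, against 4.54, 1.80 and 3.63 FPKM in floxed ones, and all 6 were highest in library 23.

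Markers of the professional class II cells were partly higher in library 23 and partly not, and their part in the result was not tested. Of the 8 dendritic cell markers, the defining Flt3 was listed at 0 in all 6 libraries and Itgax was listed at 0 in library 23. Xcr1 and Cd209a were highest there, at 0.316 and 0.242 FPKM. The sum of the 8 was 6.77 FPKM there, against 5.83 to 8.42 FPKM in floxed libraries. Batf3 gave 4.67 FPKM and Zbtb46 1.55 FPKM of the sum in library 23. Both were at 1.55 FPKM or more in all 6 libraries, in which Flt3 was at 0, so the sum mostly reflects these 2 genes. The 9 macrophage markers summed to 14.9 FPKM in library 23, within 14.1 to 16.9 FPKM in Pdgfra-cre and below the 18.1 to 19.3 FPKM of floxed libraries, with the defining Adgre1 at 0.0340 FPKM. C1qa, a complement gene of macrophages, was highest in library 23, at 1.88 FPKM, and the other 8 were not. The 6 B and plasma cell markers summed to 10.9 FPKM in library 23, against 2.67 to 4.89 FPKM in floxed libraries, of which Jchain, a plasma cell gene, gave 10.5 FPKM. Mzb1, of the same list, was listed at 0 in all 3 Pdgfra-cre libraries. In floxed libraries 8, 9 and 43 it had 0.446, 0.672 and 0 FPKM. Cd79a had 0.460 FPKM in library 23, against 0.186 to 0.939 FPKM in floxed libraries. Ms4a1, Cd79b and Pax5 were listed at 0 in library 23, the last 2 in all 6 libraries. The class II genes summed to 420 FPKM in that library, against 26.9 to 38.3 FPKM in floxed ones.

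Neutrophil markers and part of the epithelial ones were also highest in library 23, and their part in the result was not tested. The 6 neutrophil markers found summed to 180 FPKM there, against 18.05 and 10.8 FPKM in Pdgfra-cre libraries 13 and 25 and 1.36 to 11.4 FPKM in floxed ones. S100a8, a granule protein gene of neutrophils, gave 94.7 FPKM of it. The defining Csf3r was at 0.668 FPKM there and at 0.0958 FPKM or less in the other 5 libraries. All 6 were highest in library 23. The 6 epithelial markers summed to 28.6 FPKM in library 23, against 0.620 to 13.7 FPKM in floxed libraries. The keratin genes Krt19 and Krt8 gave 15.4 and 11.5 FPKM of it. Epcam was at 1.11 FPKM there, and Vil1 and Krt20 were listed at 0. Of the 6 epithelial markers 4 were highest in library 23. The lymphatic endothelial markers, of cells that bear Podoplanin too, were all listed at 0 in library 23.

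Of the marker lists run, that of mesothelial and antigen-presenting fibroblast genes had the most tested members with Pdgfra-cre above floxed in all libraries. These were 4 of 6, against 8.07% of all tested genes. In the neutrophil list 2 of 3 tested members, S100a8 and S100a9, showed this too. The median fold change of the neutrophil list was 2.78, or 1.51 without library 23. Mesothelial cells cover the outer gut wall and, in mouse pancreatic tumours, are a known source of class II-positive fibroblasts marked by Slpi and Saa3. Slpi, a protease inhibitor, had 29.7, 125 and 14.8 FPKM in Pdgfra-cre libraries, against 3.42, 6.49 and 3.61 FPKM in floxed ones. Msln, mesothelin, had 8.81, 28.1 and 4.22 FPKM in Pdgfra-cre libraries, against 0, 0.804 and 0.166 FPKM in floxed ones, with groups apart. The defining Upk3b had 2.47, 11.2 and 1.76 FPKM in Pdgfra-cre libraries, against 0.343, 0.0645 and 1.10 FPKM in floxed ones. In these 3 genes, named after their values were seen, library 23 was highest and the groups did not overlap. Ezr, the cytoskeletal linker ezrin, was also apart, with 25.6, 23.3 and 34.999 FPKM in Pdgfra-cre libraries, against 18.9, 18.4 and 14.8 FPKM in floxed ones, and library 23 was the lowest of its group. Wt1, a mesothelial transcription factor, had 2.77, 2.47 and 2.58 FPKM in Pdgfra-cre libraries, against 1.16, 3.85 and 1.39 FPKM in floxed ones. Its groups overlapped, as did those of Saa3. Of 7 list members 6 were tested, 0 passed (limma), 6 were above 0, against 50.3% of all tested genes, and the median fold change was 1.69, or 1.13 without library 23. The whole list summed to 713 to 3231 FPKM in Pdgfra-cre and 223 to 1052 FPKM in floxed libraries, most of it Saa3, an acute phase gene. Its part in the class II result was not tested.

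**Figure D3:**
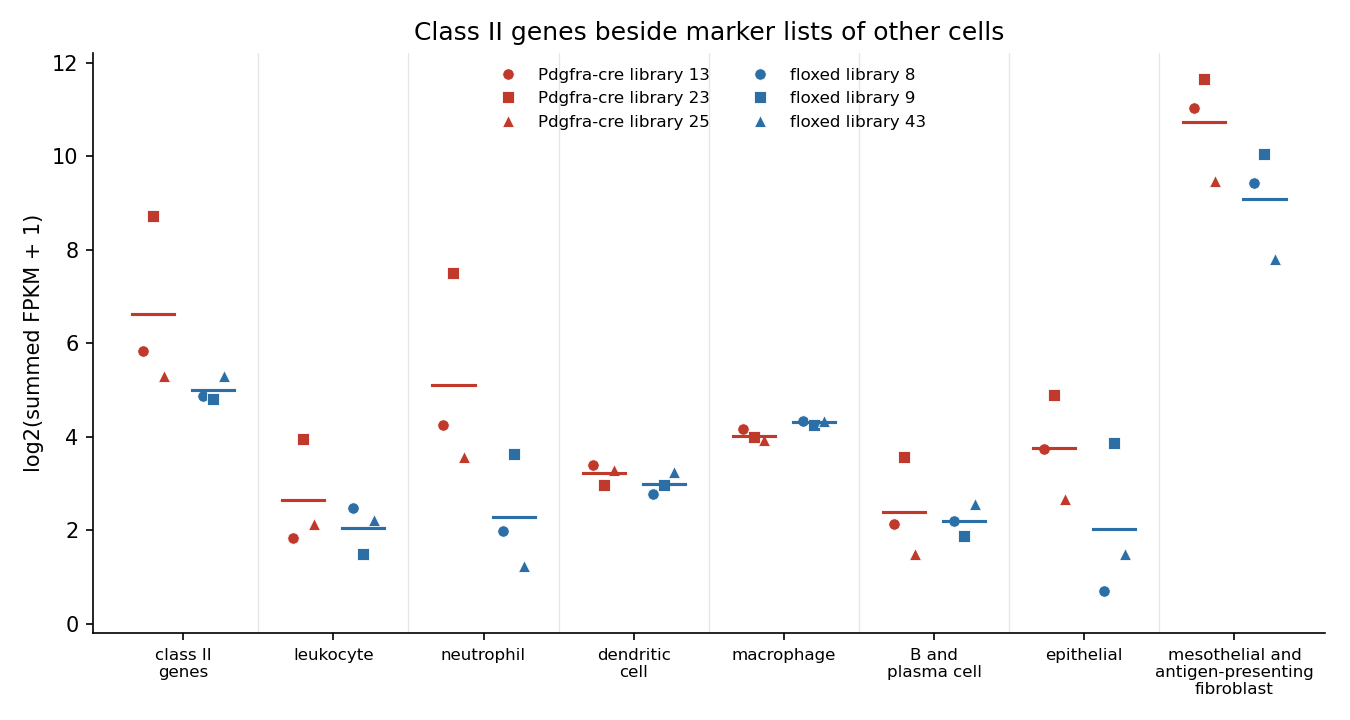
Summed FPKM, as log2(sum + 1), of the class II genes and of marker lists for other cells in each library; lines are group means (n = 3 each). Leukocyte, neutrophil, B and plasma cell, epithelial and mesothelial sums are highest in Pdgfra-cre library 23 (red squares), while dendritic cell and macrophage sums are not. The dendritic cell sum is mostly Batf3 and Zbtb46. In library 23 the B and plasma cell sum is mostly Jchain, and the epithelial sum is mostly Krt19 and Krt8.

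Upstream of Ciita, 3 of the 8 interferon gamma route genes described here had higher values in all 3 Pdgfra-cre libraries than in any floxed one, as 8.07% of tested genes did. Jak2, a receptor kinase, had 10.4, 19.7 and 12.2 FPKM in Pdgfra-cre libraries, against 7.69, 6.85 and 5.45 FPKM in floxed ones. Irf1, which acts on the inducible Ciita promoter, had 454, 722 and 344 FPKM in Pdgfra-cre libraries, against 318, 253 and 342 FPKM in floxed ones. Groups were apart in both genes and in Socs1, the feedback inhibitor, in Irf1 by little. The fold changes were 0.94 ± 0.25 for Jak2, 0.67 ± 0.24 for Irf1 and 0.90 ± 0.33 for Socs1 (SE; limma adjusted p of 0.210 to 0.339). Without library 23 they were 0.69 for Jak2, 0.39 for Irf1 and 0.46 for Socs1. Ifngr1, the ligand-binding receptor chain, had 205, 204 and 223 FPKM in Pdgfra-cre libraries, against 229, 229 and 280 FPKM in floxed ones. Its groups were apart in the opposite direction, with a fold change of -0.22, and those of Ifngr2, the other receptor chain, overlapped. Of the 8 route genes all were tested, 0 passed (limma), 6 were above 0 and the median fold change was 0.17. The interferon gamma gene, Ifng, stood at a listed 0 in every one of these leukocyte-depleted libraries.

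The proteins that hold CIITA on the promoter gave no such pattern. Of the 7 complex genes 6 were tested, 0 passed (limma), 3 were above 0, none had groups apart, and the median fold change was -0.04. Rfxap had 11.7, 13.6 and 13.4 FPKM in Pdgfra-cre libraries, against 13.1, 12.4 and 11.3 FPKM in floxed ones. Rfx5 had 3.17, 4.26 and 3.92 FPKM in Pdgfra-cre libraries, against 4.47, 2.94 and 2.17 FPKM in floxed ones. In both genes the groups overlapped. Nfya, below the filter, was at 1.00 FPKM in library 23 and at 0.245 FPKM or less in the other 5 libraries.

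**Figure D4:**
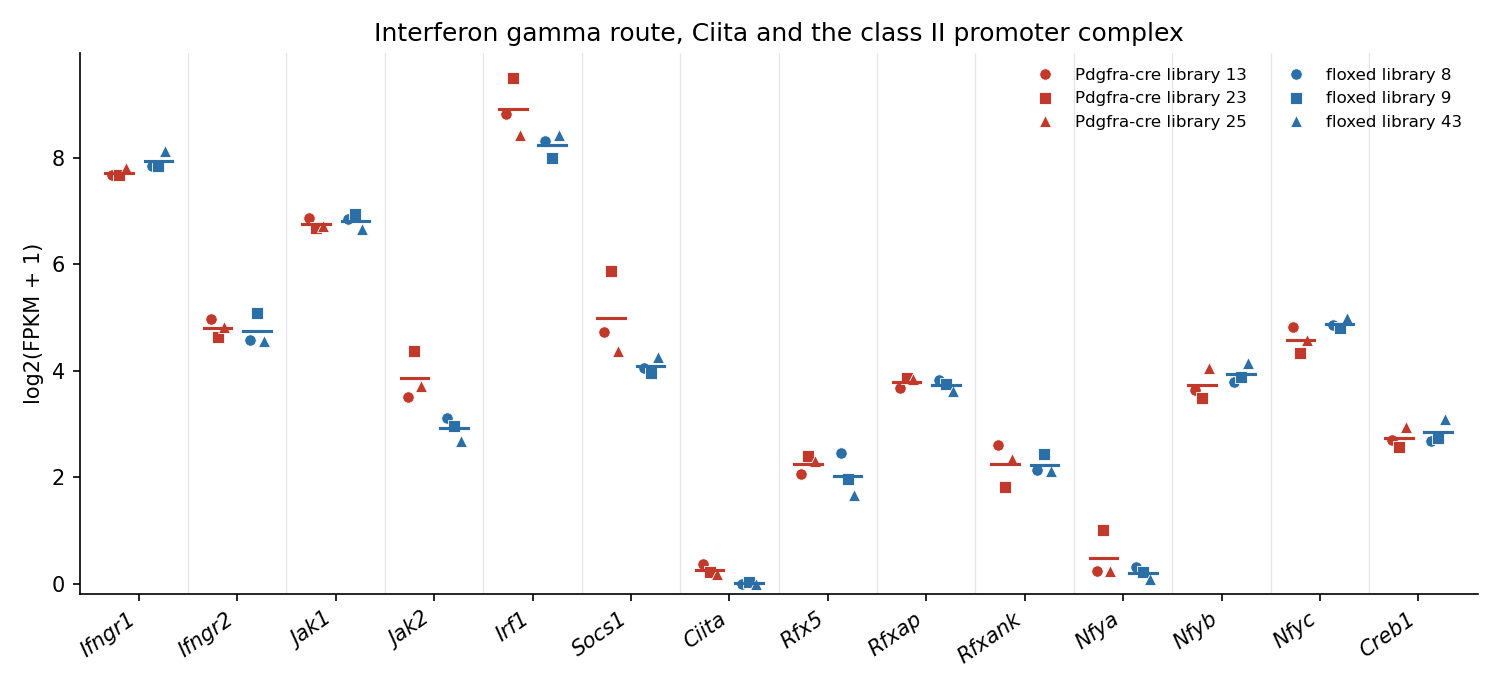
Level, as log2(FPKM + 1), of interferon gamma route genes, Ciita and genes of the RFX, NF-Y and CREB complex in each library; lines are group means (n = 3 each), red is Pdgfra-cre and blue is floxed. Jak2, Irf1, Socs1 and Ciita lie higher in all 3 Pdgfra-cre libraries, while Rfx5, Rfxap, Rfxank, Nfyb, Nfyc and Creb1 overlap between groups.

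The endosomal proteases that cut antigen and invariant chain were far more abundant than Ctss and did not follow the class II genes. The reductase Ifi30, listed with them, had 9.19, 14.5 and 17.3 FPKM in Pdgfra-cre libraries, against 14.9, 14.1 and 13.1 FPKM in floxed ones. Ctsl, the cathepsin that trims the invariant chain in thymic epithelium, had 454, 427 and 491 FPKM in Pdgfra-cre libraries, against 465, 469 and 438 FPKM in floxed ones. Lgmn, the asparagine endopeptidase, had 177, 197 and 213 FPKM in Pdgfra-cre libraries, against 331, 294 and 266 FPKM in floxed ones. Its groups did not overlap, and its fold change was -0.60 ± 0.12 (SE; limma adjusted p = 0.160), with -0.61 without library 23. Of the 7 enzymes all were tested, 0 passed (limma), 1 was above 0 and the median was -0.05. None was highest in library 23. Of the 4 turnover genes 3 were tested, 0 passed (limma) and 1 was above 0. Among them Cd82, a tetraspanin, had 30.7, 35.3 and 39.1 FPKM in Pdgfra-cre libraries, against 43.8, 43.3 and 46.1 FPKM in floxed ones, with groups apart.

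The costimulatory genes that T cells need beside class II were low, and of the 4 listed 2 were tested and 0 passed (limma). Cd80 had 0.844, 0.276 and 0.943 FPKM in Pdgfra-cre libraries, against 0.210, 0.395 and 0 FPKM in floxed ones. Cd86 had 1.17, 1.24 and 0 FPKM in Pdgfra-cre libraries, against 0.314, 0.506 and 0 FPKM in floxed ones. In both genes the groups overlapped. Cd40 was the most abundant, with 8.06, 8.64 and 6.61 FPKM in Pdgfra-cre libraries, against 6.73, 7.15 and 5.06 FPKM in floxed ones (limma adjusted p = 0.710).

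The genes whose pattern over the 6 libraries was most like that of Cd74 were sought among 7875 others with at least 5 FPKM on average. The 10 with the highest Pearson correlation were Tomm5, Socs1 and Gbp8 (0.992 each), Atg7, Psmb9 and Mndal (0.991 each), C1qtnf3 (0.989), Ppp6r1 (0.984), Ifit1 (0.982) and Drg1 (0.981). Over the 5 libraries without library 23 their correlations were 0.86 to 0.98. Socs1, Gbp8, a guanylate-binding protein gene, Psmb9, an immunoproteasome subunit gene, Mndal and Ifit1 are known interferon-induced genes. Psmb9 had 58.6, 183 and 46.3 FPKM in Pdgfra-cre libraries, against 31.9, 30.6 and 33.4 FPKM in floxed ones. C1qtnf3, a secreted protein gene, had 222, 789 and 234 FPKM in Pdgfra-cre libraries, against 120, 95.2 and 158 FPKM in floxed ones. Both followed the order of Cd74 in that library 23 was highest and floxed libraries lowest. The other tested class II genes had correlations with Cd74 of 0.928 to 0.968 over 6 libraries and 0.44 to 0.72 without library 23. All these correlations share 6 libraries, in which library 23 lies far from the others in Cd74, and 216 genes reached 0.9. The 10 genes named were picked by this correlation, and the class II genes were not. How far the correlations fell without library 23 therefore cannot be compared between them.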

How the data were processed

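The values analysed are FPKM for each gene (fragments scaled to transcript length and library size), deposited by the authors as 1 table per library. Per the submitters' processing notes, TopHat2 2.1.1, Bowtie2 2.2.8, SAMtools 0.1.18, Cuffdiff 2.2.1 and the mm10 build were used. Which annotation and options were used is not given in the sources used here. Per the labels' protocols, cDNA was made from total RNA with a full-length kit and tagmented, which does not keep the strand, so reads of overlapping genes may be mixed.

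The 3 Pdgfra-cre libraries were compared with the 3 floxed ones with limma 3.58.1 in R 4.3.3, on log2(FPKM + 1) with a variance trend. All 11429 genes with at least 1 FPKM in at least 3 of the 6 libraries were fitted together, and p values were adjusted by Benjamini-Hochberg over all of them, with a threshold of 0.05. A fold change on this scale understates differences of low genes. Members below the filter were compared with an exact two-sided permutation test, whose smallest p for 3 against 3 is 0.1. The procedure was tested on simulated data over 11429 genes in which 200 genes of more than about 5 FPKM were changed by a log2 of 2; of these 88.3% were recovered, with 8.8 false calls on average. Nothing in the labels beyond a mouse number separates the libraries of a group, and no batch or date is given.

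The members, gene lists and tests were chosen with earlier results of these data known. The text names the 10 members and Ptprc, genes of the pathway and marker lists, and the 10 genes with at least 5 FPKM on average whose log2(FPKM + 1) correlated best with that of Cd74. For 1 gene each of the interferon gamma route and B and plasma cell lists, values are not reported here, and the lists' counts and sums leave them out. Depth was estimated from genes with 1 coding transcript of over 1500 bases in GENCODE M21. Alternatives tried were quantile normalization, median-of-ratios scaling, pseudocounts of 0.1 and 5, a filter of 5 FPKM or none, array weights, no variance trend and leaving out each library.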

Additional observations from a re-analysis of the deposited data

How the results depend on the processing

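With limma, 0 of the tested members passed under all 14 alternatives. All 113 recomputed values of the 9 members with a value above 0 kept their direction and their side of the threshold. For H2-Oa, Ctss and Ciita these values came from the exact permutation test, except without a filter, where limma was used. The smallest p of the permutation test, 0.1, lies above the threshold, so under it only their direction could have changed. Among the tested members the lowest limma adjusted p was 0.148, for H2-Aa without Pdgfra-cre library 25. The median fold change of tested members, 1.40, ranged from 0.303 without Pdgfra-cre library 23 to 1.98 without Pdgfra-cre library 25; it was 0.891 without a filter and 0.956 with array weights, and 1.02 to 1.56 under the others that kept all libraries. Leaving out 1 library gave 0 to 33 called genes across the table, 33 without Pdgfra-cre library 25, 3 without Pdgfra-cre library 13 and 2 without floxed library 43, none of them a member. No paired analysis was possible because the groups share no mouse number. Low depth limits Ciita, Ctss and H2-Oa, whose values outside library 23 stand for about 15 fragments or fewer.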

Other observations

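Other cells of the gut were also read from their markers. Lymphoid stroma markers summed to 275 to 474 FPKM in Pdgfra-cre and 470 to 996 FPKM in floxed libraries, most of it Cxcl13, a B cell attractant, and the lowest sum was that of Pdgfra-cre library 23. Enteric glia markers summed to 5.24 to 8.78 FPKM in Pdgfra-cre and 5.63 to 14.9 FPKM in floxed libraries, again lowest in library 23. Pericyte markers summed to 7.41 to 8.66 FPKM in Pdgfra-cre and 10.3 to 11.4 FPKM in floxed libraries. Markers of group 3 innate lymphoid cells summed to 1.17 FPKM in library 23, 0 in the other Pdgfra-cre libraries and 0 to 0.134 FPKM in floxed ones. T and NK cell markers summed to 0.174 to 1.14 FPKM in Pdgfra-cre and 0.183 to 0.726 FPKM in floxed libraries, and blood endothelial markers to 0.968 to 1.13 FPKM in Pdgfra-cre and 0.325 to 1.42 FPKM in floxed ones.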
